A study of Oryza sativa Japonica Group with 9 samples.

Results

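Arbusculated cortical cells of rice roots were compared with their uncolonised neighbours, called systemic cells, and each difference was placed by its level in cortical cells of roots without the fungus. The comparison used the 3 arrays of arbusculated and the 3 of systemic cells, chosen by their sample titles, so 6 of the 9 arrays of the study. The other 3 arrays, of mock cells, gave the level that placed each difference. All plants were Nipponbare, a japonica cultivar, fed a Hoagland solution with a labelled 25 mM KH2PO4 and harvested at 7 weeks. Arbusculated and systemic cells came from roots given 250 spores of Rhizophagus irregularis at planting, and mock cells from roots not given the fungus. Each sample was a pool of about 2000 cortical cells cut out by laser, and systemic cells held no fungus but lay next to arbusculated ones. No label says which plants a sample was cut from, so the p-values reflect nothing beyond the spread between samples, and it is unknown here whether arbusculated and systemic cells shared plants.

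Arbuscules are tree-like fungal branches inside root cortical cells, enclosed by a membrane that the plant cell builds around them. Across it the fungus releases phosphate and other minerals and takes up lipids and sugars from the plant. Each arbuscule occupies a single cell for a short time, so a colonised root holds hosting and empty cortical cells side by side.

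The differences that passed the test were mostly higher in arbusculated cells, while over all probe sets more were lower. Of 57258 rice probe sets, 141 (0.246%) passed an adjusted p of 0.05 in limma, with Benjamini-Hochberg adjustment over all probe sets. Of these, 133 (0.232% of all probe sets) were higher and 8 (0.014%) lower in arbusculated than in systemic cells. In all 141 the arbusculated and systemic arrays did not overlap, which also held for 32.1% of all probe sets, 9.39% higher and 22.7% lower. Of all probe sets 40.2% were higher in arbusculated cells. The median difference of all probe sets was -0.17 on the log2 scale, and it was not subtracted from the differences given. At an unadjusted p under 0.05 there were 4652 probe sets higher and 9012 lower.

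The arrays differed in other ways too. The 3' minus 5' difference of control probe sets, a measure of RNA quality, was 0.78 ± 0.45 in arbusculated, 0.20 ± 0.32 in systemic and 0.32 ± 0.11 in mock cells (log2, SD, n = 3 each). Its part in the differences was not tested. Across probe sets, which are not independent, mock 2 had a mean correlation of 0.878 with arbusculated arrays and of 0.853 with its own group. Without it 126 probe sets passed, 92 of them among the 141.

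The 3 largest differences were rises in arbusculated cells, with systemic and mock cells low together. LOC4347898 had log2 values of 12.62, 12.83 and 12.60 in arbusculated cells, against 4.11, 3.56 and 3.86 in systemic and 4.43, 3.91 and 4.09 in mock cells. It was among the dimmer probe sets on 6 arrays and far above them on the other 3. Its rise over systemic cells was 8.84 ± 0.23 (SE; adjusted p = 3.79e-06 in limma). LOC4329556 had 10.89, 10.80 and 10.29 in arbusculated cells, against 2.90, 2.47 and 2.09 in systemic and 2.29, 3.02 and 3.16 in mock cells. It rose by 8.17 ± 0.32 (adjusted p = 4.76e-05 in limma), and systemic and mock arrays overlapped. LOC4347897 had 10.93, 11.30 and 10.42 in arbusculated cells, against 3.45, 3.17 and 3.45 in systemic and 3.38, 3.06 and 3.31 in mock cells. It rose by 7.52 ± 0.26 (adjusted p = 2.17e-05 in limma). LOC4326659 rose by 6.32 ± 0.33 (adjusted p = 0.000406 in limma), with 9.68, 9.45 and 9.61 in arbusculated cells. The files and tables used here give these 4 genes no informative name, and no role is given to them.

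**Figure D1:**
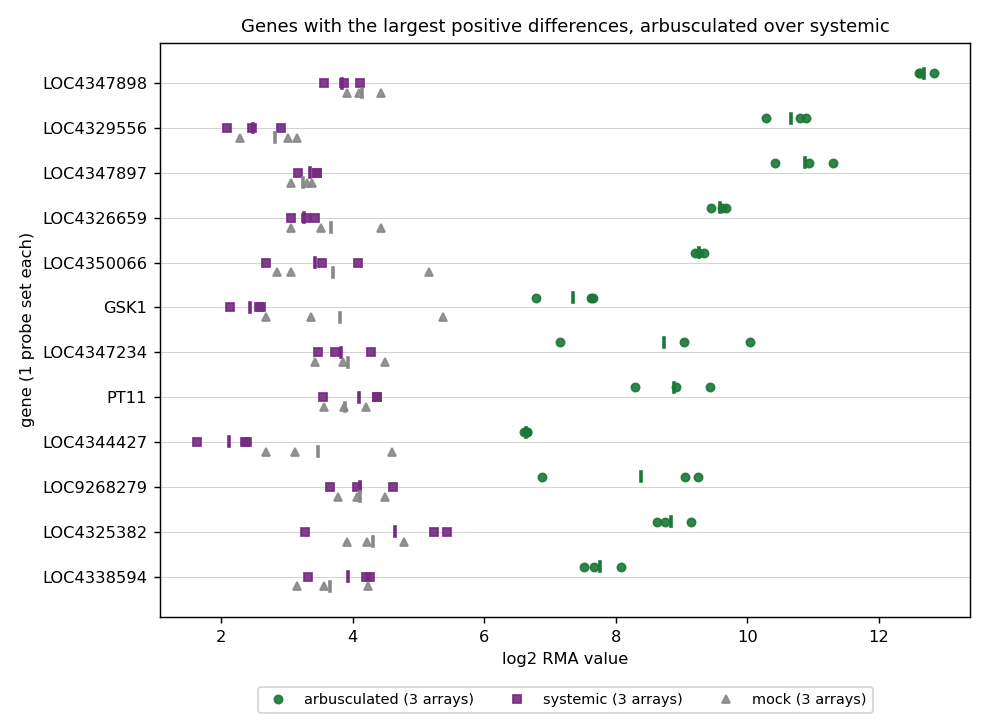
Log2 RMA values of the 12 genes with the largest positive differences between arbusculated and systemic cells, 1 point per array, with a short bar at each mean of 3 arrays. They were taken among called probe sets paired with exactly 1 gene and without an _x_at suffix. The probe set of LOC9268279 has the suffix _s_at. The arbusculated arrays lie above every systemic and mock array for each gene, and LOC4347898 lies highest, at 12.60 to 12.83.

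LOC4347897 and LOC4347898 lie next to each other on chromosome 9 among genes with a probe set, in the annotation of assembly ASM3414082v1, with 1 protein-coding gene between them. LOC4347903, LOC4347909 and LOC4347910, further along, also passed, at 2.58, 1.46 and 3.10. Chromosome 9 had 6 called genes among 962 with a probe set (0.624%), and over the 12 nuclear chromosomes the share ran down to 0.236% on chromosome 11.

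PT11 (LOC4324187) carries phosphate across the membrane that surrounds arbuscules and is the standard marker of cells that host them. It had 9.43, 8.91 and 8.30 in arbusculated cells, against 3.55, 4.37 and 4.37 in systemic and 4.20, 3.87 and 3.56 in mock cells. The systemic and mock arrays overlapped, and both lay far below the arbusculated arrays. It rose by 4.78 ± 0.36 (adjusted p = 0.00381 in limma), and it passed whichever array was left out. Its 3 other probe sets did not pass. They differed by 1.83 (adjusted p = 0.14 in limma), in the same direction, and by -0.51 (0.205) and -1.38 (0.253), in the other. Of the 15 markers listed for arbusculated cells 2 were measured, so the label was checked on few genes. The other, the ammonium transporter AMT3-1, was 0.85 ± 0.32 higher (adjusted p = 0.173 in limma). No marker of cortex as such was listed, so that part of the label was not checked.

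The remaining 8 of these 12 genes, PT11 and GSK1 among them, were higher than in systemic cells by 3.82 to 5.84. LOC4350066 rose by 5.84 ± 0.60 (adjusted p = 0.0153 in limma), though its other probe set differed by -0.28. It lost its call without arbusculated 1, arbusculated 2, systemic 2 or systemic 3, with adjusted p up to 0.0685. LOC4347234 rose by 4.91 ± 0.66 (adjusted p = 0.037 in limma), with 9.03, 10.03 and 7.15 in arbusculated cells, so arbusculated 3 lay well under the others, and it kept its call only without arbusculated 3 or mock 2. LOC4344427 was higher by 4.51 ± 0.46 (adjusted p = 0.0153 in limma), and its second probe set passed as well, at 3.49. It lost its call without arbusculated 1, arbusculated 2 or any systemic array (up to 0.0685). LOC9268279 rose by 4.28 ± 0.59 (adjusted p = 0.0408 in limma) and LOC4325382 by 4.19 ± 0.54 (0.03), keeping their calls only without arbusculated 3 for LOC9268279, and without systemic 2 or mock 2 for LOC4325382. LOC4338594, at 3.82 ± 0.36 (adjusted p = 0.0126 in limma), lost its call only without arbusculated 1 (0.0534).

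To separate rises from falls, the mock mean was placed between the means of both cell populations. The share given is the part of the difference that lies between arbusculated and mock means. At 75% or more the mock mean lies near the systemic mean, and the difference is mostly a rise in arbusculated cells. At 25% or less it lies near the arbusculated mean, and the difference is mostly a fall in systemic cells. Of the 133 higher probe sets, 98 (73.7%) were mostly a rise in arbusculated cells, 29 (21.8%) were split and 6 (4.51%) were mostly a fall in systemic cells. Among all 6013 probe sets higher by at least 1 on the log2 scale, these shares were 44.6%, 41% and 14.4%. The median share of the 133 was 92.1%, and 48 of them had a mock mean below the systemic mean.

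**Figure D2:**
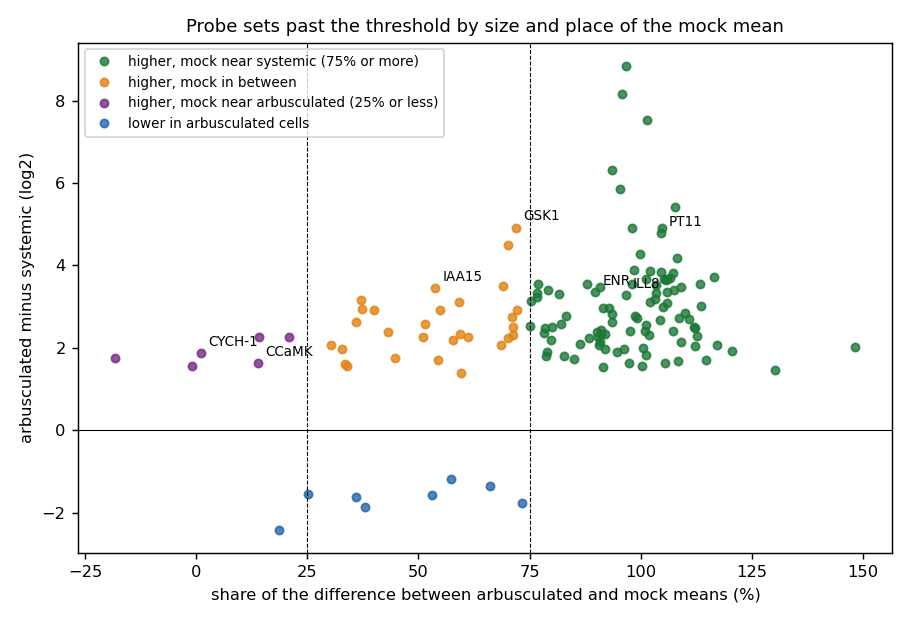
Difference between arbusculated and systemic means (log2, vertical) against the share of it that lies between arbusculated and mock means (%, horizontal), for the 141 probe sets past the threshold, with dashed lines at 25% and 75%. The points of 5 and more all lie right of 75%, PT11 lies at 104.6%, and CYCH-1 and CCaMK lie left of 25%.

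The place of the mock mean was also counted by the size of the difference, as a description with no test. Of the called probe sets higher by at least 3, 42 of 48 (87.5%) were mostly a rise in arbusculated cells. Of those higher by under 2, 17 of 27 (63%) were. Among all probe sets, passed or not, the share was 44.6% of those higher by at least 1, 45.6% by at least 2 and 65.4% by at least 3. Just inside the border lay BGLU13, at 75.2%, and just outside it GSK1, at 72.0%. LOC4344427, at 70.1%, was split as well, so these are the 2 of the 12 genes with the largest differences that were not placed mostly as a rise in arbusculated cells.

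**Figure D3:**
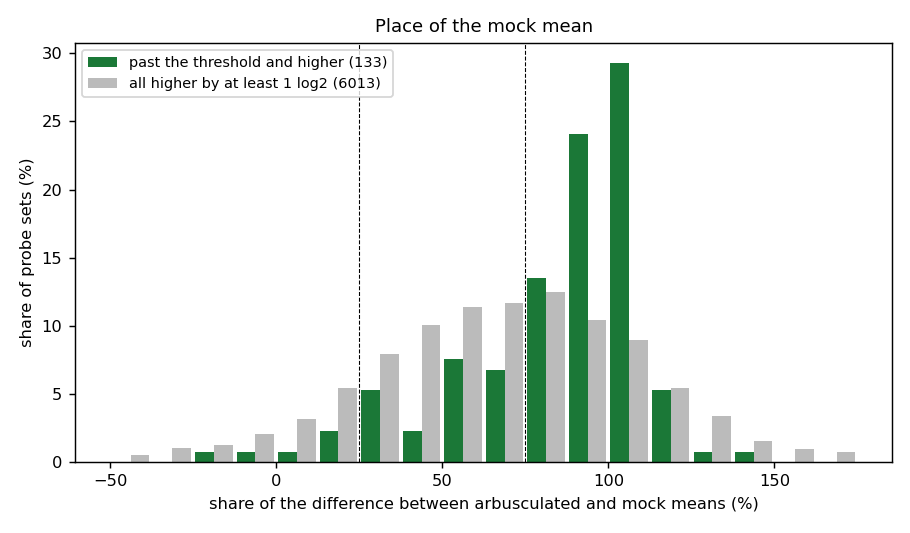
Share of the difference between arbusculated and mock means (%, horizontal) for the 133 higher probe sets past the threshold and for all 6013 higher by at least 1 on the log2 scale, as a share of each set (%, vertical). The median was 92.1% in the smaller set and 69.7% in the larger, and dashed lines mark 25% and 75%; shares outside the drawn range are left out of the bars.

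A separate contrast set the mock mean against the midpoint of arbusculated and systemic means. It is orthogonal to the difference that chose the probe sets, though both share a variance per probe set. In limma 4 probe sets (0.00699%) passed at an adjusted p of 0.05, among them LOC4347898, LOC4329556 and LOC4347897. At an unadjusted p under 0.05, an alternative added after the data were seen, 95 of the 133 higher probe sets had a mock mean below the midpoint, where 2.65% of all probe sets did. In 6 of the 133 it lay above the midpoint, against 2.45% of all probe sets. Called probe sets have a difference that is large against the shared variance, so all probe sets are not a like background. Of the 95, 94 were among the 98 mostly a rise, and the 6 were those mostly a fall in systemic cells. These counts therefore largely repeat the placing and add no separate support for it.

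For the 98 probe sets that were mostly a rise in arbusculated cells, the medians of their group means were 7.94 in arbusculated, 4.61 in systemic and 4.48 in mock cells. The way they were chosen sets the order of these levels, which are given as a description.

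Among genes with an informative name, 8 were mostly a rise in arbusculated cells. Against mock cells PT11, ILL8, CKI1, YSL13 and HPT1 passed in limma. ENR (adjusted p = 0.0675), BGLU13 (0.123) and MPK8 (0.0859) did not pass against mock cells in limma. For these genes the rise is a placing of means and was not called by itself. ILL8, an ILR1-like hydrolase that frees auxin from amino acid conjugates, had 7.71, 8.49 and 8.12 in arbusculated cells, against 4.98, 4.81 and 4.70 in systemic and 4.98, 5.10 and 4.75 in mock cells. Systemic and mock arrays overlapped, and the share was 96.6%. It rose by 3.27 ± 0.24 (adjusted p = 0.00381 in limma) and, like PT11, passed in every fit that left out 1 array. ENR (LOC4345286), an enoyl reductase that makes fatty acids in plastids, had 10.40, 9.86 and 9.08 in arbusculated cells, against 6.16, 6.94 and 6.18 in systemic and 7.65, 6.34 and 6.32 in mock cells. It rose by 3.35 ± 0.47 (adjusted p = 0.0417 in limma), with a share of 89.7%, and it lost its call without any array but mock 1 (up to 0.121). ACC2, of the same pathway, had 11.19, 11.19 and 10.67 in arbusculated and 5.13, 8.46 and 9.04 in systemic cells, and its difference of 3.48 ± 0.87 did not pass (adjusted p = 0.122 in limma).

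CKI1, a casein kinase I, rose by 2.67 ± 0.34 with a share of 104.5% (adjusted p = 0.0304 in limma). YSL13, of the yellow stripe-like metal transporters, rose by 2.33 ± 0.29 with a share of 91.0% (adjusted p = 0.0274 in limma). HPT1 rose by 2.14 ± 0.26 (adjusted p = 0.0256 in limma), and all 6 of its probe sets were higher, by 0.86 to 2.41. BGLU13, a beta-glucosidase, rose by 3.14 ± 0.45 (adjusted p = 0.046 in limma), and its other probe set differed by 1.11 (0.262). MPK8, a mitogen-activated protein kinase, rose by 1.91 ± 0.26 by a cross-hybridising probe set (adjusted p = 0.037 in limma), while its other probe set differed by -0.30. These 5 genes kept their calls in at most 3 of the 9 fits that each left out 1 array: CKI1 without arbusculated 1 or mock 2, YSL13 without arbusculated 3, mock 1 or mock 2, HPT1 without mock 2 or mock 3, BGLU13 and MPK8 without mock 2. Their highest adjusted p was 0.121.

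Another 5 named genes were split, with mock cells in between. IAA15, an Aux/IAA repressor of auxin signalling, had 8.04, 7.70 and 7.18 in arbusculated cells, against 3.66, 3.94 and 4.98 in systemic and 6.18, 5.26 and 5.92 in mock cells. The 3 groups did not overlap, with mock arrays in between, as in 33 of the 141 called probe sets and 1.68% of all probe sets. The share was 53.8%. It was 3.45 ± 0.41 higher than in systemic cells (adjusted p = 0.0246 in limma). It lost its call without arbusculated 1, arbusculated 2, systemic 1, systemic 2 or mock 3 (up to 0.0906). GSK1, a shaggy-like kinase, had 6.78, 7.62 and 7.65 in arbusculated cells, against 2.13, 2.60 and 2.57 in systemic and 3.36, 2.69 and 5.38 in mock cells. It was 4.91 ± 0.62 higher than in systemic cells (adjusted p = 0.0275 in limma), its mock arrays were spread wide, and its other probe set differed by 0.95. PRXIIC, a type II peroxiredoxin, was 3.10 ± 0.47 higher than in systemic cells (adjusted p = 0.0492 in limma). Its share was 59.2%, and its other probe sets differed by 2.50 and -0.96. CKI, a second casein kinase I, was higher than in systemic cells by 1.72 ± 0.26 (adjusted p = 0.0487 in limma) and CYN by 1.61 ± 0.22 (0.0405). Their shares were 54.4% and 33.4%. Over mock cells CKI was higher by 0.93 and CYN by 0.54, and neither passed (adjusted p = 0.265 and 0.345 in limma). The second probe set of CYN, whose called one is cross-hybridising, differed by -0.07. GSK1 kept its call only without mock 2 or mock 3, CYN only without mock 2, and PRXIIC and CKI in none of the 9 fits, with adjusted p up to 0.126.

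**Figure D4:**
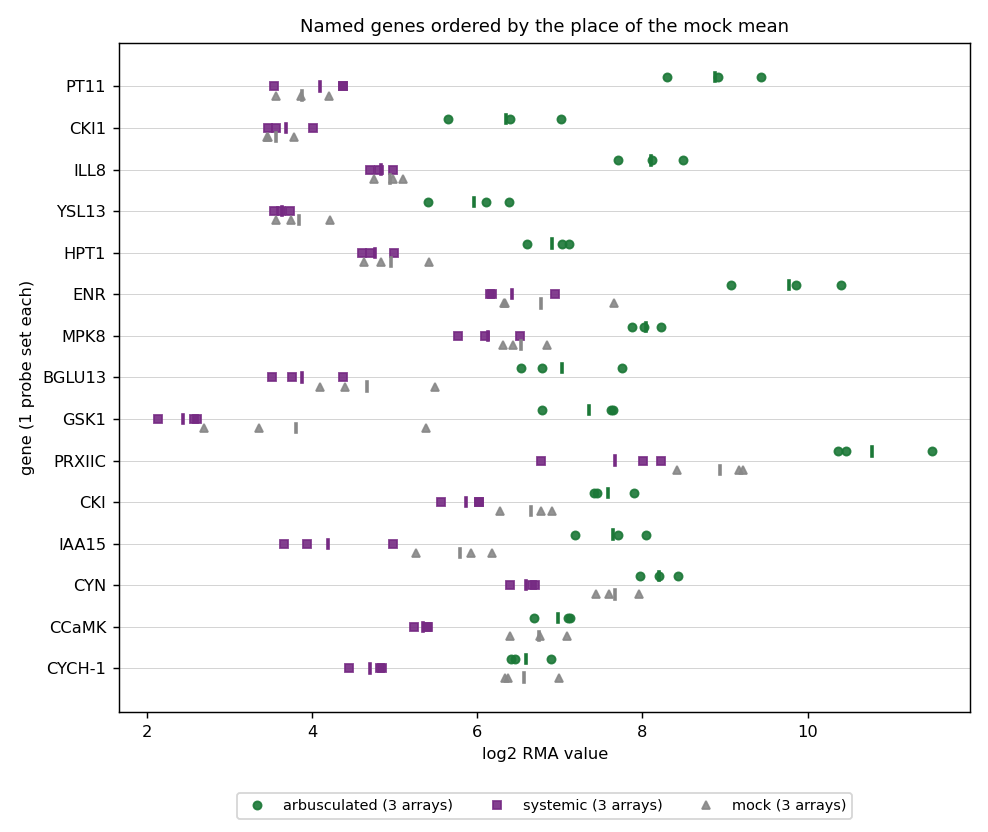
Log2 RMA values of the 15 called genes with an informative name, 1 point per array and a short bar at each mean of 3 arrays, ordered from a mock mean near systemic cells (top) to one near arbusculated cells (bottom). ILL8 and PT11 show systemic and mock arrays together, and CCaMK and CYCH-1 show arbusculated and mock arrays together.

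Only 6 of the 133 higher probe sets were mostly a fall in systemic cells, and 2 of them belong to named genes. CCaMK, the calcium and calmodulin-dependent kinase of the signalling pathway that admits the fungus, had 7.10, 6.69 and 7.12 in arbusculated cells, against 5.41, 5.39 and 5.24 in systemic and 6.75, 6.39 and 7.09 in mock cells. Arbusculated and mock arrays overlapped, and the systemic arrays lay below both. The difference between arbusculated and systemic cells was 1.62 ± 0.24 (adjusted p = 0.046 in limma), with a share of 13.96%. Its other probe set differed by 0.56 (adjusted p = 0.386 in limma). With a share of 61.4%, that probe set did not place CCaMK mostly as a fall in systemic cells. CYCH-1, cyclin H, had 6.89, 6.41 and 6.46 in arbusculated cells, against 4.82, 4.85 and 4.44 in systemic and 6.99, 6.38 and 6.34 in mock cells. The difference was 1.88 ± 0.26 (adjusted p = 0.0392 in limma), with a share of 1.0%.

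The others of the 6 were LOC4334619 (2.27, share 20.9%), LOC9266999 (2.25, 14.04%), LOC4341921 (1.56, -0.9%) and a probe set paired with no gene (-18.2%). The second probe set of LOC9266999 differed by 0.01, and that of LOC4341921 by 0.33 with a share of 132.9%. Each of the 5 genes lost its call in at least 8 of the 9 fits with an array left out, CYCH-1 keeping it only without mock 1, and CCaMK and LOC4334619 only without mock 2. Their highest adjusted p was 0.14. Systemic against mock cells passed for none of these 5 genes in limma, so the fall is a placing of means and was not called by itself.

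The 8 lower probe sets had smaller differences, from -1.18 to -2.41. LOC4337135 had 4.0, 3.51 and 3.81 in arbusculated cells, against 6.09, 6.75 and 5.71 in systemic and 4.67, 4.37 and 3.63 in mock cells. Systemic arrays stood above both other groups, which overlapped. It was lower than in systemic cells by 2.41 on the log2 scale (SE 0.35, adjusted p = 0.046 in limma). Its difference from mock cells was -0.45 (adjusted p = 0.53 in limma), and it was the 1 of the 8 placed mostly as a rise in systemic cells. Systemic cells lay 1.96 above mock cells, which did not pass (adjusted p = 0.716 in limma), so that rise is a placing of means. LOC4329386 was lower by 1.56 (adjusted p = 0.0333 in limma), with mock arrays in between. The other 6 probe sets are paired with no gene, and all 6 were split. In none of the 8 did the share reach the upper border, so none was placed mostly as a fall in arbusculated cells. Just below that border, at 73.3%, lay a probe set paired with no gene. It had 4.23, 4.02 and 4.06 in arbusculated cells, against 5.44, 5.91 and 6.24 in systemic and 5.15, 5.65 and 5.39 in mock cells. Its systemic and mock arrays overlapped, above the arbusculated arrays. Its difference from mock cells was -1.29 (adjusted p = 0.124 in limma). Each of the 8 lost its call in every fit that left out 1 array, except LOC4329386, which kept it without mock 2.

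Of the 20 gene lists described by 1 probe set per gene, the one with the highest mean, 5 held a called member in limma. In 0 of them was a member called lower, though 28 list entries were lower at an unadjusted p under 0.05. Over all probe sets 40.2% were higher, 0.232% were called higher and the median was -0.17. The lists hold named genes by their brightest probe set, so all probe sets are not a like background. Of the 20 lists 17 had a median above that of all probe sets, and 14 had one above 0. The auxin list had 40 of 64 members higher, 2 of them called, and a median of 0.22. Casein kinases and cyclins had 32 of 38 higher, 3 called (CKI1, CYCH-1 and CKI) and a median of 0.67. Redox enzymes had 35 of 46 higher, 1 called, and a median of 0.64. All 7 metallothioneins, small metal-binding proteins, were higher, with a median of 1.98, and 0 were called in limma, with 5 at an unadjusted p under 0.05. MT2C had 11.93, 8.68 and 10.04 in arbusculated cells, against 5.96, 7.57 and 5.94 in systemic and 10.69, 7.85 and 12.09 in mock cells. Its difference of 3.73 ± 1.15 did not pass (adjusted p = 0.141 in limma).

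The list of strigolactone and apocarotenoid synthesis had 4 of 7 members higher and a median of 1.13, with 0 called in limma and 2 at an unadjusted p under 0.05. DXR, of the plastid isoprenoid pathway, had 7.99, 8.69 and 8.06 in arbusculated cells, against 6.80, 6.80 and 6.10 in systemic and 6.17, 6.07 and 6.10 in mock cells. Its difference of 1.68 ± 0.27 missed the threshold (adjusted p = 0.0662 in limma), as did that of CCD7, at 1.68 ± 0.36 (0.103). Of the 9 PHT1 phosphate transporters 4 were higher, with a median of -0.42 and 0 called in limma by these probe sets. At an unadjusted p under 0.05, 1 was higher and 3 were lower. PT11 was read in this list by its probe set that differed by -0.51. Pht1;8 had 10.10, 10.30 and 9.85 in arbusculated cells, against 5.94, 11.10 and 5.17 in systemic and 8.70, 7.20 and 7.79 in mock cells. Systemic 2 lay above every other array, and the difference of 2.68 ± 1.33 did not pass (adjusted p = 0.247 in limma).

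Other lists held no called member by these probe sets in limma, and their counts and medians are descriptions. Over all probe sets, a background unlike the lists, 40.2% were higher and the median was -0.17. Phosphate starvation response had 9 of 10 members higher (median 0.77), nitrogen transport and assimilation 10 of 13 (0.48) and heat shock 32 of 43 (0.39). Ribosomal proteins had 21 of 24 higher, with a median of 0.76 that was 0.39 after a further quantile normalisation. Histone H2B genes had 5 of 5 higher (1.09). Diterpenoid phytoalexin synthesis had 12 of 14 lower (-0.31), expansins, near these background values, 18 of 29 lower (-0.17) and photosynthesis 5 of 6 lower (-0.91), and jasmonate synthesis with its JAZ repressors was near even, at 16 higher and 19 lower. At an unadjusted p under 0.05, these lists held 2, 3, 9, 5, 3, 1, 1, 0 and 3 members higher, and 0, 1, 3, 1, 0, 0, 2, 0 and 4 lower, in the order named.

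Markers of other root cell types were read from the same arrays. The 5 measured markers of endodermis and exodermis were all higher, with a median of 0.55 and 0 called in limma, also at an unadjusted p under 0.05. The mean over these markers ran from 6.96 to 8.52 in arbusculated, from 7.18 to 7.33 in systemic and from 7.18 to 7.87 in mock cells. Markers of xylem and sclerenchyma had a median of -0.28, with means of 5.90 to 6.54 in arbusculated, 6.03 to 6.67 in systemic and 7.14 to 7.77 in mock cells. Both cell populations of colonised roots thus lay below mock for that list, and its part in the place of the mock mean was not tested. The epidermis and root hair list had 1 measured marker, CSLD1, with 3.36, 6.69 and 4.54 in arbusculated, 3.37, 3.70 and 3.90 in systemic and 8.03, 4.60 and 3.85 in mock cells, so mock 1 stood above every other array. Of 2 meristem and lateral root markers, SMR1 was 0.98 higher, with 6.90, 5.12 and 6.53 in arbusculated, 5.27, 5.14 and 5.20 in systemic and 5.15, 5.28 and 5.13 in mock cells, and QHB differed by -0.51. The phloem marker SUT1 differed by 0.20. None of these markers was called in limma, SMR1 having an unadjusted p under 0.05, and their part in the results was not tested. Fewer cells of a type and less RNA per cell cannot be told apart in such pools.

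Few calls held with every array. With arbusculated 1, 2 and 3 left out in turn, 25, 57 and 90 probe sets passed, and 18, 37 and 59 of these were among the 141. Without systemic 1, 2 and 3 the counts were 44, 36 and 33, with 31, 26 and 29 among the 141. Without mock 1, 2 and 3 they were 81, 126 and 62, with 71, 92 and 54 among the 141. In all 9 such fits 12 of the 141 passed, 11 of them mostly a rise in arbusculated cells. These were LOC4347898, LOC4329556, LOC4347897, LOC4326659, PT11 and ILL8, and, chosen after their values were seen, LOC4333846, LOC4331418, LOC4330302 and 3 probe sets paired with no gene. LOC4330302 was the split one, at 54.8%, with 8.0, 7.61 and 7.89 in arbusculated cells, against 5.29, 4.54 and 4.92 in systemic and 6.17, 6.53 and 5.99 in mock cells.

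**Figure D5:**
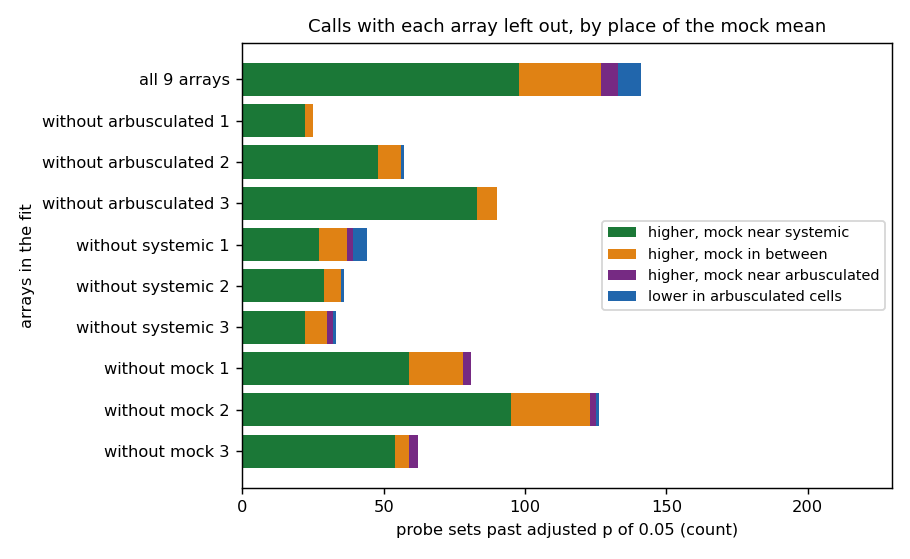
Number of probe sets past an adjusted p of 0.05 (horizontal) with all 9 arrays and with each array left out (vertical), coloured by the place of the mock mean. The total ran from 25 without arbusculated 1 to 126 without mock 2. Each total with an array left out includes probe sets outside the 141. The probe sets with a mock mean near systemic cells were the largest class in each of these fits.

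Annotation limits what can be named. Of the 141 probe sets, 93 (66%) were paired with exactly 1 gene, against 39.2% of all probe sets, and they stood for 92 genes, 15 of them with an informative name. Of the 29 called genes with several probe sets, 1 had more than 1 of them called and 13 had probe sets in both directions.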

How the data were processed

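Values on the log2 scale, 1 for each probe set, were deposited by the authors and come from RMA, per the submitters' processing notes, with no version stated. They ran from 1.52 to 14.06 and were used unchanged. After 123 control probe sets were left out, 57258 remained, and limma 3.58.1 (R 4.3.3) modelled 3 group means over all 9 arrays with moderated variances, two-sided tests and Benjamini-Hochberg adjustment. The number of arrays, 3 per group, limits the precision. Probe sets were named through the platform's annotation where paired with exactly 1 gene (22436), with 95 paired with several and 34727 with none. The lists, the comparison and the naming rule were chosen with earlier results of these data known. Named were the 12 largest differences in each direction with 1 gene, groups apart and no _x_at suffix, every called gene with an informative name, the 5 largest of each class, all lower calls, the arbuscule markers, and list members among the most changed. Other names were chosen after values were seen. Same-numbered arbusculated and systemic arrays had deviation correlations of -0.0204, 0.00807 and 0.0388, so numbers were not used as pairs. Promoter motifs were not analysed here.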

Additional observations from a re-analysis of the deposited data

Results flagged for a closer look

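In 5 named genes every arbusculated array lay above all mock arrays while every systemic array lay below them. Mock arrays lay between both groups without overlap, in either direction, in 33 of the 141 called probe sets and 1.68% of all probe sets. Of the 33, 24 were split and higher, 4 were mostly a rise in arbusculated cells, and 5 were lower in arbusculated cells. The differences between arbusculated and systemic cells were 4.91 for GSK1, 3.45 for IAA15, 3.10 for PRXIIC, 1.72 for CKI and 1.61 for CYN on the log2 scale. Each passed the limma test between arbusculated and systemic cells, at adjusted p of 0.0275, 0.0246, 0.0492, 0.0487 and 0.0405. Other probe sets placed the mock mean elsewhere, by the share of the difference between arbusculated and mock means. For PRXIIC the shares were 114% at a difference of 2.50 and 78.5% at -0.96, against 59.2% by the called one. The latter probe set was lower in arbusculated cells, so its share does not place a rise there. For GSK1 the share was 102%, against 72.0% by the called one. The second probe set of CYN differed by -0.07. Against mock cells none of the 5 passed in limma, in either population. For arbusculated cells the adjusted p in limma was 0.0936 for GSK1, 0.182 for IAA15, 0.238 for PRXIIC, 0.265 for CKI and 0.345 for CYN. For systemic cells it was 0.827 for CYN and 0.969 for each of the others. That each population moved away from mock in its own direction is thus a placing of means and was not called.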

How the results depend on the processing

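The counts depended on the processing, and none of the 37 named calls changed sign under any alternative that tested it. For all calls, the lower ones, those mostly a rise in arbusculated cells, the split ones and those mostly a fall in systemic cells, the counts were 141, 8, 98, 29 and 6. With only the 6 arrays of both groups they were 11, 0, 9, 2 and 0. With the replicate block they were 14, 0, 14, 0 and 0, with 1 probe set past the midpoint contrast and 14 below the midpoint at an unadjusted p under 0.05; the numbers are not stated to pair samples. With probe sets averaged per gene they were 77, 2, 54, 18 and 3. With trend and robust moderation there were 92 calls, 3 lower, 12 split and 2 mostly a fall in systemic cells. After a further quantile normalisation 5 were lower and 17 split. Among brighter probe sets 4 were lower and 64 mostly a rise, with 62 below the midpoint. With array weights 15 were lower, 57 split and 12 mostly a fall, and 10 passed the midpoint contrast. At an adjusted p under 0.1 there were 704 calls, 188 of them lower. With borders at 10% and 90%, 53 were split and 3 mostly a fall, and at 40% and 60%, 12 and 13. With each array left out in turn, these counts ran from 25 to 126, 0 to 5, 22 to 95, 3 to 28 and 0 to 3. From 18 to 92 of the calls in such a fit were among the 141. In these fits 2 to 7 were past the midpoint contrast and 22 to 94 below the midpoint. Centring each array moved the median of all probe sets to -0.10 and that of sugar transport, -0.06, to 0.01 (0.04 after the further quantile normalisation). The cause of these changes was not tested.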
